A study of Mus musculus with 9 samples.

Results

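Glutathione S-transferase genes were followed in mouse cornea, lens and tendon. The set held 9 genes, Gsta3 and Gsta4 of the alpha class, Gsto1 of the omega class, Gstp1 of the pi class, Gstm1, Gstm2 and Gstm5 of the mu class, and Gstt1 and Gstt2 of the theta class. Every probe set that the platform annotation gives to 1 of these genes alone was taken, which gave 14 of the 12488 probe sets on the array: 4 for Gstm5, 2 each for Gstm1 and Gstm2, and 1 for each other gene. No probe set named a member together with another gene. The 9 arrays comprised 3 of cornea from adult mice of 7 weeks, 2 of cornea at postnatal day 10 (P10), 2 of lens and 2 of flexor digitorum longus tendon, the lens and tendon also from mice of 7 weeks. No strain, allele or treatment is given, and each array carried target made from 5 ug of total RNA. Each array was a separate RNA preparation, made from pooled tissue in the case of lens and tendon. The corneas had been cut free of the limbus and scraped of epithelium, which by the submitters' account lowered but did not remove the epithelial part. The cornea arrays came from an earlier study, so an array batch and the tissue cannot be told apart in any comparison of cornea with lens or tendon.

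Glutathione S-transferases are enzymes that join the tripeptide glutathione to reactive, electrophilic compounds, which makes these compounds soluble and ready for export. The classes differ in substrates: the alpha class handles products of lipid peroxidation, the omega class reduces dehydroascorbate and other oxidised thiol partners, the mu and pi classes take up epoxides and unsaturated carbonyls, and the theta class acts on small halogenated compounds. Cornea and lens are exposed to light and oxygen radicals and are known for high contents of glutathione and ascorbate. Many transferase genes are known targets of the transcription factor NRF2, which binds antioxidant response elements together with small MAF proteins.

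The promoters of 4 members are shown because these genes had the clearest tissue patterns among the members listed in the promoter table used here, Gsta3 and Gsto1 with their highest levels in cornea and Gstp1 and Gstm5 with their highest levels in lens. Each line gives the 250 bases before the transcription start, 5′ to 3′ on the strand of the gene, from RefSeq on GRCm38.p6. The windows are chr1:21240335-21240584 (plus strand) for Gsta3, chr19:47854723-47854972 (plus strand) for Gsto1, chr19:4037913-4038162 (minus strand) for Gstp1 and chr3:107895604-107895853 (plus strand) for Gstm5. Capitals mark matches to any of 3 motifs searched on both strands, the antioxidant response element core TGACNNNGC, the AP-1 core TGANTCA and TGCTGA, part of the MAF recognition element.
Gsta3: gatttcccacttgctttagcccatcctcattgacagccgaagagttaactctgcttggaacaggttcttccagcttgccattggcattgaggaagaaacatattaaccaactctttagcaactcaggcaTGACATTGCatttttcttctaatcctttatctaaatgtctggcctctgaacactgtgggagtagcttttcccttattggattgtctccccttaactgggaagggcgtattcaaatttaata
Gsto1: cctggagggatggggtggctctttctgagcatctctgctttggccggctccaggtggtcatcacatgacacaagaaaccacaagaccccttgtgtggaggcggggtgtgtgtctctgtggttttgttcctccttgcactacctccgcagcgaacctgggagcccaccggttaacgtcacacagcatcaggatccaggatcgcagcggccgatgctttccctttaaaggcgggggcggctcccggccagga
Gstp1: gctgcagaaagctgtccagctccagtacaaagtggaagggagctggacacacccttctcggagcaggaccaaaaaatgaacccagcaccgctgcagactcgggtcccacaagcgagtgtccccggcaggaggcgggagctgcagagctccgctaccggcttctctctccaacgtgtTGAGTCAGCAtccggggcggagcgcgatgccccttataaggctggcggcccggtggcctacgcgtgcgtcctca
Gstm5: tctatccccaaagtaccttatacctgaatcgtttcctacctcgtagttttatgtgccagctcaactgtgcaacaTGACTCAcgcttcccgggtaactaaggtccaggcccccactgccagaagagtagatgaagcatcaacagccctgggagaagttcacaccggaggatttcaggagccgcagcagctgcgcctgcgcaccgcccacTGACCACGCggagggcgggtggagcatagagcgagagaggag
The Gsta3 window held TGACATTGC, a match to the antioxidant response element core, 121 to 113 bases before the start. The Gstm5 window held another such match, TGACCACGC, 42 to 34 bases before the start, and TGACTCA, a match to the AP-1 core, 176 to 170 bases before it. The Gstp1 window held TGAGTCA, a match to the AP-1 core, 74 to 68 bases before the start, overlapping by 3 bases a TGCTGA match on the opposite strand at 70 to 65 bases. No match was found in the 250 bases shown for Gsto1. Among 32851 promoter windows of the same length, 10.2% held TGACNNNGC, 6.75% held TGANTCA and 16.1% held TGCTGA, so such matches are common and describe the letters of a window only. The Gstm2 window held 1 match, to TGCTGA, and no match was found in the windows of Gstm1 or Gstt1. By the order of genes in the RefSeq table, Gstm1, Gstm2 and Gstm5 lie in 1 cluster with Gstm3, Gstm4, Gstm6 and Gstm7, Gsta4 lies beside Gsta1 and Gsta2, Gstp1 beside Gstp2 and Gstp3, Gsto1 beside Gsto2, and Gstt1 and Gstt2 beside Gstt3 and Gstt4. Gsta3 had no family member within 500 kb.

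All levels are the deposited expression index, a linear intensity in arbitrary units, which allows a probe set to be compared between arrays but not with another probe set. Differences were tested with limma on log2(index + 16) in 1 model of the 9 arrays, and a difference was called at a Benjamini-Hochberg adjusted p under 0.05 over the 8154 probe sets tested. Folds are on that scale and understate the differences of low probe sets. Of the 14 probe sets, 13 reached the median of their array on at least 2 arrays and were tested, and the Gstt2 probe set, which reached it on 1 array, was not. Gsta3 passed that filter only through 2 adult cornea arrays, in the group where it was highest, and Gstt1 only through both tendon arrays, where it was highest, and 1 adult cornea array. Gapdh and actin control probe sets showed a 3'/5' ratio of 2.25 and 4.69 on adult cornea replicate 1, against 0.831 to 1.04 and 1.07 to 2.07 on the other arrays, so that array stood apart in this measure of RNA quality. Across probe sets, log2 values of replicate arrays correlated at r = 0.869 to 0.927 in adult cornea and at r = 0.953 to 0.978 in the other groups. Marker lists followed the tissue labels in part. The lens list (9 of 16 genes on the array) summed to 5690 to 9319 in adult cornea and 7281 to 12950 in P10 cornea, against 41992 to 43758 in lens and 553 to 608 in tendon. The list of corneal epithelium (14 of 15 genes on the array) summed to 23583 to 24666 in adult cornea and 23910 to 24404 in P10 cornea, against 2742 to 3315 in lens and 858 to 1713 in tendon. The skeletal muscle list (13 of 13 genes on the array) summed to 507 to 1203 over the cornea and lens arrays, where Mb (myoglobin) was at or below 0 on at least 1 array of each group, against 49929 to 60095 in tendon. In their sums, the corneal lists of stroma and endothelium did not set cornea above tendon. The stroma list (11 of 11 genes on the array) summed to 14116 to 15018 in adult cornea and the endothelium list (3 of 6) to 351 to 464, against 26793 to 29034 and 2217 to 2252 in tendon. In P10 cornea the sums were 26939 to 27454 and 1285 to 1305. Aldh3a1 ran against the sum of the stroma list, with an average of 6605 in adult cornea and values below 0 on both tendon arrays. It is 1 of 11 genes, and the list as a whole did not set cornea above tendon.

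Gsta4 and Gsto1 were the members with the widest range across tissues, and both were far higher in cornea of either age than in lens or tendon. Gsta4 encodes an alpha-class enzyme known for conjugating 4-hydroxynonenal, a product of lipid peroxidation. Its probe set read 3557, 3768 and 3849 in adult cornea and 2176 and 2129 in P10 cornea, against 212 and 65.6 in lens and 31.8 and 30.9 in tendon. All 5 corneal arrays lay far above the 4 other arrays, and none of the 4 groups overlapped another. In adult cornea Gsta4 was 27.4-fold higher than in lens (log2 4.77 ± 0.34 SE, limma adjusted p = 2.62e-06) and 79.0-fold higher than in tendon (log2 6.30 ± 0.34 SE, limma adjusted p = 4.65e-07). In P10 cornea it was 15.9-fold higher than in lens (log2 3.99 ± 0.38 SE) and 45.8-fold higher than in tendon (log2 5.52 ± 0.38 SE), with limma adjusted p-values of 1.97e-05 and 3.27e-06. In lens it was 2.89-fold higher than in tendon (log2 1.53 ± 0.38 SE, limma adjusted p = 0.00692). The lens arrays differed from each other, and leaving out either of them moved the size of each lens difference. Without lens replicate 1 the log2 differences were 5.52 for adult cornea over lens, 4.73 for P10 cornea over lens and 0.79 for lens over tendon. Without lens replicate 2 they were 4.03, 3.25 and 2.27 in the same order, all 6 still called.

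Gsto1 encodes the omega-class transferase, a thiol transferase that also reduces dehydroascorbate back to ascorbate. It read 5675, 5354 and 6138 in adult cornea and 3973 and 4952 in P10 cornea, against 854 and 659 in lens and 136 and 137 in tendon. The order of tissues was the same as for Gsta4, with no overlap between any 2 groups. In adult cornea Gsto1 was 7.48-fold higher than in lens (log2 2.90 ± 0.17 SE, limma adjusted p = 9.32e-07) and 37.5-fold higher than in tendon (log2 5.23 ± 0.17 SE, limma adjusted p = 2.95e-08). In P10 cornea it was 5.81-fold higher than in lens and 29.2-fold higher than in tendon (log2 2.54 and 4.87, each ± 0.19 SE; limma adjusted p = 4.51e-06 and 9.71e-08). In lens it was 5.02-fold higher than in tendon (log2 2.33 ± 0.19 SE, limma adjusted p = 5.07e-06). Across all 9 arrays the log2 values of Gsta4 and Gsto1 correlated at r = 0.977, a description that rests on the 4 tissue levels they share.

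Gsta3 encodes another alpha-class enzyme, known in mouse liver for detoxifying an epoxide of aflatoxin. At a low level it showed the same preference for cornea, with 102, 79.9 and 59.1 in adult cornea and 55.2 and 44.3 in P10 cornea, against 10.1 and 13.9 in lens and 12.8 and 8.28 in tendon. Every corneal array was above every lens and tendon array. Because the probe set entered the test only through the adult corneas, its differences follow from the filter in part and are given as description: 3.38-fold over lens and 3.57-fold over tendon in adult cornea, and 2.34-fold and 2.48-fold in P10 cornea (log2 1.76, 1.84, 1.23 and 1.31, the first 2 ± 0.24 SE and the others ± 0.26 SE). Limma adjusted p-values were 0.000171, 0.000186, 0.00318 and 0.00458 in that order. The difference of P10 cornea from tendon lost its call without P10 cornea replicate 1 (adjusted p = 0.0511) and without tendon replicate 2 (0.0624). Without adult cornea replicate 1 or 2 Gsta3 no longer met the filter and was not tested. Lens and tendon did not differ in this probe set beyond their spread (log2 0.08, limma adjusted p = 0.826; 95% interval -0.50 to 0.66).

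The summed list of corneal epithelium had the order of Gsta4 and Gsto1, with cornea above lens and lens above tendon, and Gsta3 shared with it only the higher values in cornea. In it Sfn was at or below 0 on a lens array and Ehf on a tendon array, while no epithelial marker was at or below 0 in cornea. The part of residual epithelium in these differences was not tested, and fewer cells of a type and less RNA per cell cannot be told apart in such bulk samples.

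**Figure D1:**
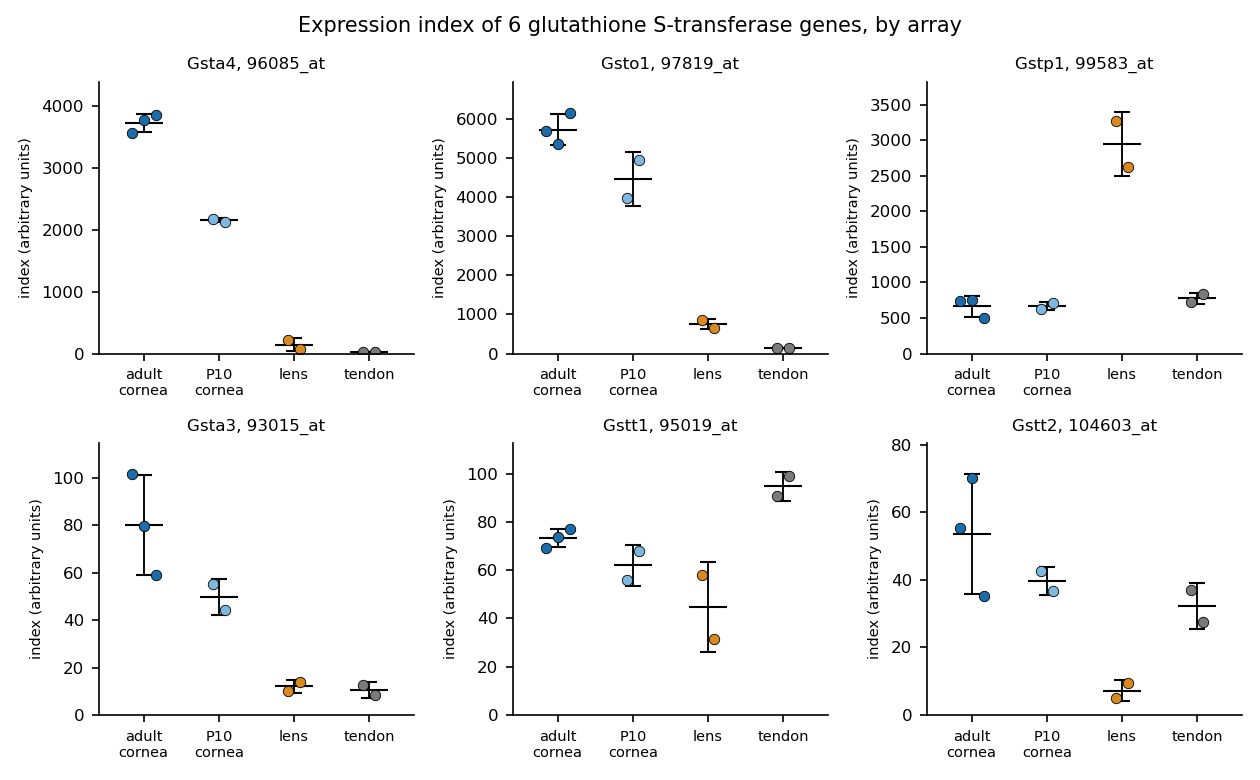
Expression index (arbitrary units, linear axis from 0) of the 6 transferase genes with 1 probe set, for adult cornea (n = 3), P10 cornea, lens and tendon (n = 2 each). Points are arrays, the long dash is the mean and the bars show the SD. Gsta4, Gsto1 and Gsta3 are highest in cornea, Gstp1 is highest in lens at 2630 and 3266, and Gstt2 is lowest in lens at 5.05 and 9.40.

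Gstp1 encodes the pi-class transferase, widely expressed outside the liver. It was higher in lens than in each other tissue and was level among the others. Its probe set read 742, 749 and 497 in adult cornea, 627 and 705 in P10 cornea, 3266 and 2630 in lens and 723 and 832 in tendon. Both lens arrays lay above all 7 other arrays, while adult cornea, P10 cornea and tendon overlapped or lay side by side. Adult cornea was 4.42-fold lower than lens (log2 -2.14 ± 0.22 SE, limma adjusted p = 2.40e-05) and P10 cornea was 4.33-fold lower than lens (log2 -2.11 ± 0.24 SE, limma adjusted p = 5.97e-05). Lens was 3.72-fold higher than tendon (log2 1.90 ± 0.24 SE, limma adjusted p = 9.53e-05). Adult cornea over tendon gave a log2 difference of -0.25 (95% interval -0.73 to 0.23, limma adjusted p = 0.418) and P10 cornea over tendon gave -0.22 (-0.74 to 0.31, adjusted p = 0.543), neither past the test. Gstp2 and Gstp3, the neighbouring pi-class genes, are named by no probe set in the annotation used, and whether their transcripts add to this signal was not tested.

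The mu class gave a split picture by probe set. The names of Affymetrix probe sets carry suffixes: _f marks probes that may match several members of a gene family, and _r marks sets for which a probe selection rule was relaxed. Gstm5 had 4 probe sets, of which 100629_at is the only 1 with no such suffix. It read 50.7, 49.1 and 39.2 in adult cornea and 79.4 and 88.3 in P10 cornea, against 718 and 489 in lens and 97.2 and 141 in tendon. Lens was highest, adult cornea lowest, and the 4 groups did not overlap. Adult cornea was 9.80-fold lower than lens (log2 -3.29 ± 0.23 SE, limma adjusted p = 2.11e-06) and P10 cornea 6.10-fold lower than lens (log2 -2.61 ± 0.25 SE, limma adjusted p = 2.11e-05). Lens was 4.57-fold higher than tendon (log2 2.19 ± 0.25 SE, limma adjusted p = 4.98e-05). Adult cornea was also 2.14-fold lower than tendon (log2 -1.10 ± 0.23 SE, limma adjusted p = 0.00382), which lost its call without tendon replicate 2 (adjusted p = 0.0675).

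The family probe set of Gstm5, 100630_f_at, read 274, 267 and 250 in adult cornea, 253 and 282 in P10 cornea, 1343 and 1070 in lens and 408 and 454 in tendon. It set lens apart in the same direction, 4.34-fold above adult cornea and 4.29-fold above P10 cornea (log2 of cornea over lens -2.12 ± 0.18 SE and -2.10 ± 0.20 SE; limma adjusted p = 8.02e-06 and 1.97e-05) and 2.72-fold above tendon (log2 of lens over tendon 1.44 ± 0.20 SE, adjusted p = 0.000186). Adult and P10 cornea overlapped in it. Each was lower than tendon, by 1.60-fold and 1.58-fold (limma adjusted p = 0.0153 and 0.0336). These calls were lost without either tendon array, with adjusted p-values of 0.0847 and 0.154 for adult cornea and 0.140 and 0.215 for P10 cornea. The P10 call was also lost without either P10 array (0.206 and 0.106). The remaining Gstm5 probe sets did not set lens apart from the cornea arrays. 100631_r_at ranged from 158 to 239 and 161722_f_at from 55.0 to 236 over the 9 arrays, and neither was called in any of the 6 comparisons. In 100631_r_at both P10 arrays (239 and 227) lay above the 7 others, and both lens arrays (202 and 210) lay above both tendon arrays (161 and 167).

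Gstm1, the main mu-class transferase of mouse liver, showed a similar disagreement. Its family probe set 93543_f_at read 434, 443 and 318 in adult cornea, 371 and 351 in P10 cornea, 1577 and 1068 in lens and 575 and 679 in tendon. Lens was highest, tendon next, and adult and P10 cornea overlapped. Adult cornea was 3.20-fold lower than lens (log2 -1.68 ± 0.23 SE, limma adjusted p = 0.000169) and P10 cornea was 3.49-fold lower than lens (log2 -1.80 ± 0.25 SE, limma adjusted p = 0.000223). Lens was 2.05-fold higher than tendon (log2 1.04 ± 0.25 SE, limma adjusted p = 0.00592), a call lost without tendon replicate 1 (adjusted p = 0.0609). Adult cornea and P10 cornea were lower than tendon by 1.56-fold and 1.70-fold, only just past the threshold (limma adjusted p = 0.0495 and 0.0441). These calls were lost under 12 and 6 of the alternatives, among them leaving out either tendon array (0.135 and 0.295 for adult cornea, 0.134 and 0.244 for P10 cornea), either P10 array (0.0766 and 0.0765; 0.154 and 0.177) and adult cornea replicate 1 (0.0709 and 0.0582). The adult call was lost without adult cornea replicate 3 as well (0.0991). The other probe set, 161633_r_at, lay between 147 and 208 on all arrays and was not called in any comparison.

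In log2 values the family probe sets of Gstm1 and Gstm5 correlated at r = 0.977 over the 9 arrays, and 100629_at correlated with the Gstm5 family set at r = 0.978. What share of either family signal comes from other mu-class transcripts was not tested.

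Gstm2 was the mu-class gene whose leading probe set was highest in tendon. Probe set 93009_at read 68.3, 91.3 and 98.5 in adult cornea, 181 and 161 in P10 cornea, 178 and 113 in lens and 244 and 243 in tendon. Adult cornea lay below every other group, and P10 cornea and lens overlapped between it and tendon. Adult cornea was 2.57-fold lower than tendon (log2 -1.36 ± 0.23 SE, limma adjusted p = 0.00101). Adult cornea was 1.56-fold lower than lens (log2 -0.65 ± 0.23 SE, limma adjusted p = 0.0355). That call was lost without adult cornea replicate 1 (0.108), lens replicate 1 (0.270), either P10 array (each 0.0554) or either tendon array (0.0567 and 0.0566), and in the fit of only these groups (0.103). Lens was 1.64-fold lower than tendon (log2 -0.71 ± 0.25 SE, limma adjusted p = 0.0352). That call was lost without lens replicate 2 (0.233), either tendon array (0.134 and 0.129) or either P10 array (0.0551 each) and in the fit of only these groups (0.0543). The second Gstm2 probe set, 161357_r_at, ran the other way, with 100 and 161 in lens, against 76.1 and 54.0 in tendon (log2 0.84 ± 0.29 SE, limma adjusted p = 0.0341). It lost that call without lens replicate 2 (0.224), either tendon array (0.0555 and 0.212) or either P10 array (each 0.0511) and in the fit of only these groups (0.0517). The skeletal muscle list, at its highest in tendon, moved with 93009_at, and its part in that result was not tested.

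**Figure D2:**
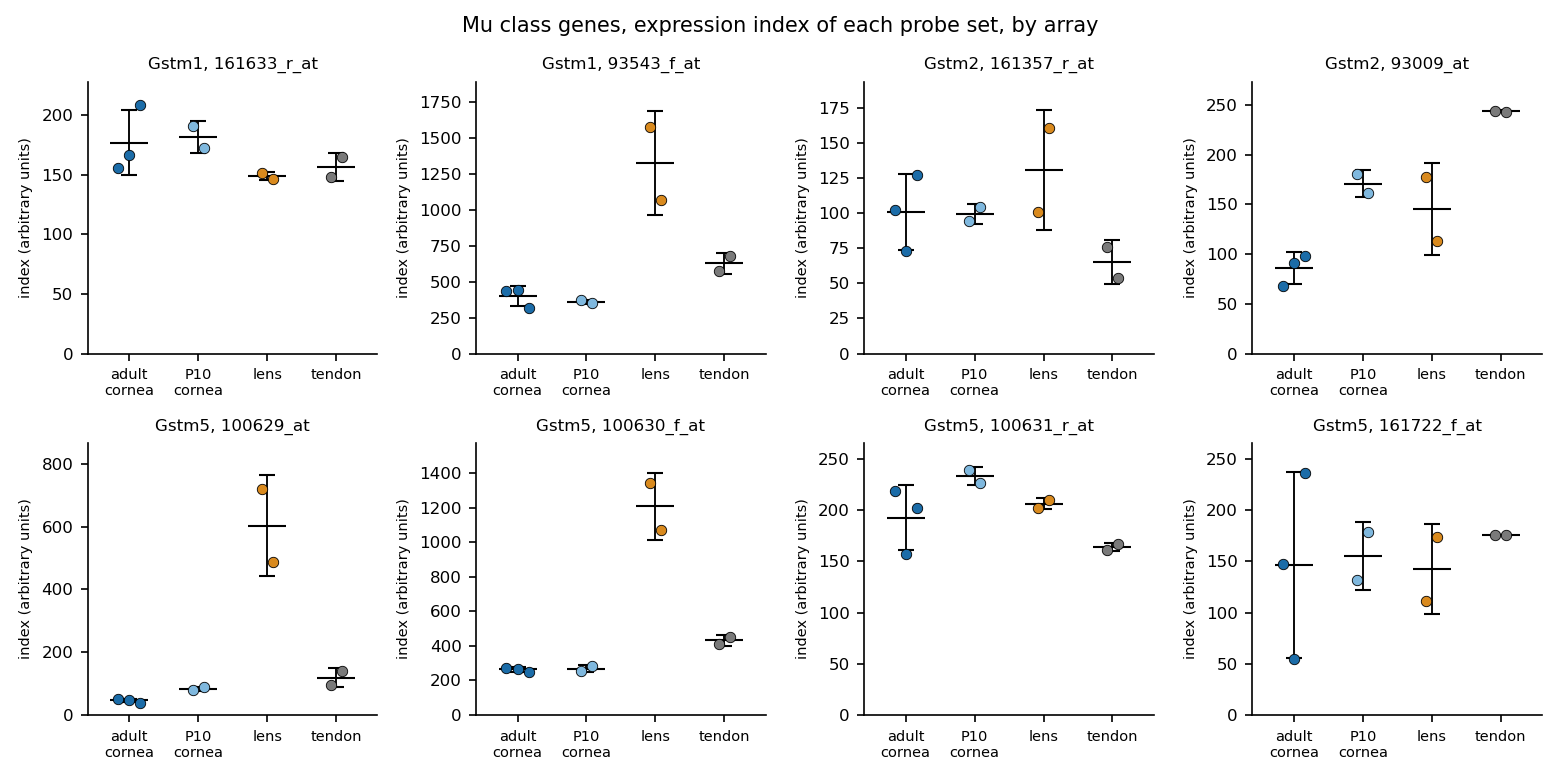
Expression index (arbitrary units, linear axis from 0) of the 8 probe sets of Gstm1, Gstm2 and Gstm5 in adult cornea (n = 3), P10 cornea, lens and tendon (n = 2 each), with points for arrays, a long dash for the mean and bars for the SD. The lens arrays stand above all others in 93543_f_at, 100629_at and 100630_f_at and not in the other 5 probe sets.

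The theta-class genes were low. Gstt1, which acts on small halogenated compounds, read 69.3, 73.7 and 76.9 in adult cornea and 56.1 and 68.0 in P10 cornea, against 57.8 and 31.5 in lens and 90.6 and 98.9 in tendon. Tendon was highest and lens overlapped P10 cornea. Because the probe set met the filter on no lens or P10 array, its differences from lens follow from the filter in part and are given as description. Lens was 1.87-fold lower than tendon (log2 -0.90 ± 0.24 SE, limma adjusted p = 0.00997), a call lost without lens replicate 2 (0.0828) or tendon replicate 2 (0.0744). Adult cornea was 1.51-fold higher than lens (log2 0.59 ± 0.22 SE, limma adjusted p = 0.0428), and this call was lost under 11 alternatives, which included leaving out any array except lens replicate 1 (0.0628 to 0.374) and the replicate block (0.0898). Gstt2 read 55.3, 70.3 and 35.2 in adult cornea, 42.6 and 36.8 in P10 cornea, 5.05 and 9.40 in lens and 37.0 and 27.4 in tendon. Both lens arrays lay below all 7 others, but these values were too low for the filter and were not tested.

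By comparison, the 13 tested probe sets divided as follows, with the share of all 8154 tested probe sets beside them. In adult cornea against lens, 4 were higher and 5 lower, where 27.2% and 24.0% of all tested probe sets were higher and lower. The higher ones were Gsta4, Gsto1, Gsta3 and Gstt1, and the lower ones were the 2 called Gstm5 probe sets and those of Gstp1, Gstm1 and Gstm2. In adult cornea against tendon, 3 were higher and 4 lower (16.1% and 18.9% of all). In P10 cornea against lens, 3 were higher and 4 lower (31.6% and 19.4% of all), and in P10 cornea against tendon 3 were higher and 2 lower (15.7% and 11.0% of all). In lens against tendon, 7 were higher and 2 lower (22.6% and 26.4% of all). Gstm2 stood on both sides there, with 161357_r_at higher and 93009_at lower. Probe sets of the same gene, and the correlated probe sets of Gstm1 and Gstm5, are not independent entries in these counts and medians. The median log2 differences of the 13 were -0.12, -0.25, 0.16, -0.18 and 0.84 in these 5 comparisons, beside 0.08, 0.01, 0.25, 0.13 and -0.07 over all tested probe sets. Because Gsta3 and Gstt1 passed the filter only through arrays where they were high, these counts describe the tested probe sets and not all members. Centring each array on its median changed the split of all calls from 2578 higher and 1578 lower to 1922 and 2057 for P10 cornea against lens, and from 1277 and 897 to 989 and 1177 for P10 cornea against tendon. No called member difference changed sign under any scaling tried.

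**Figure D3:**
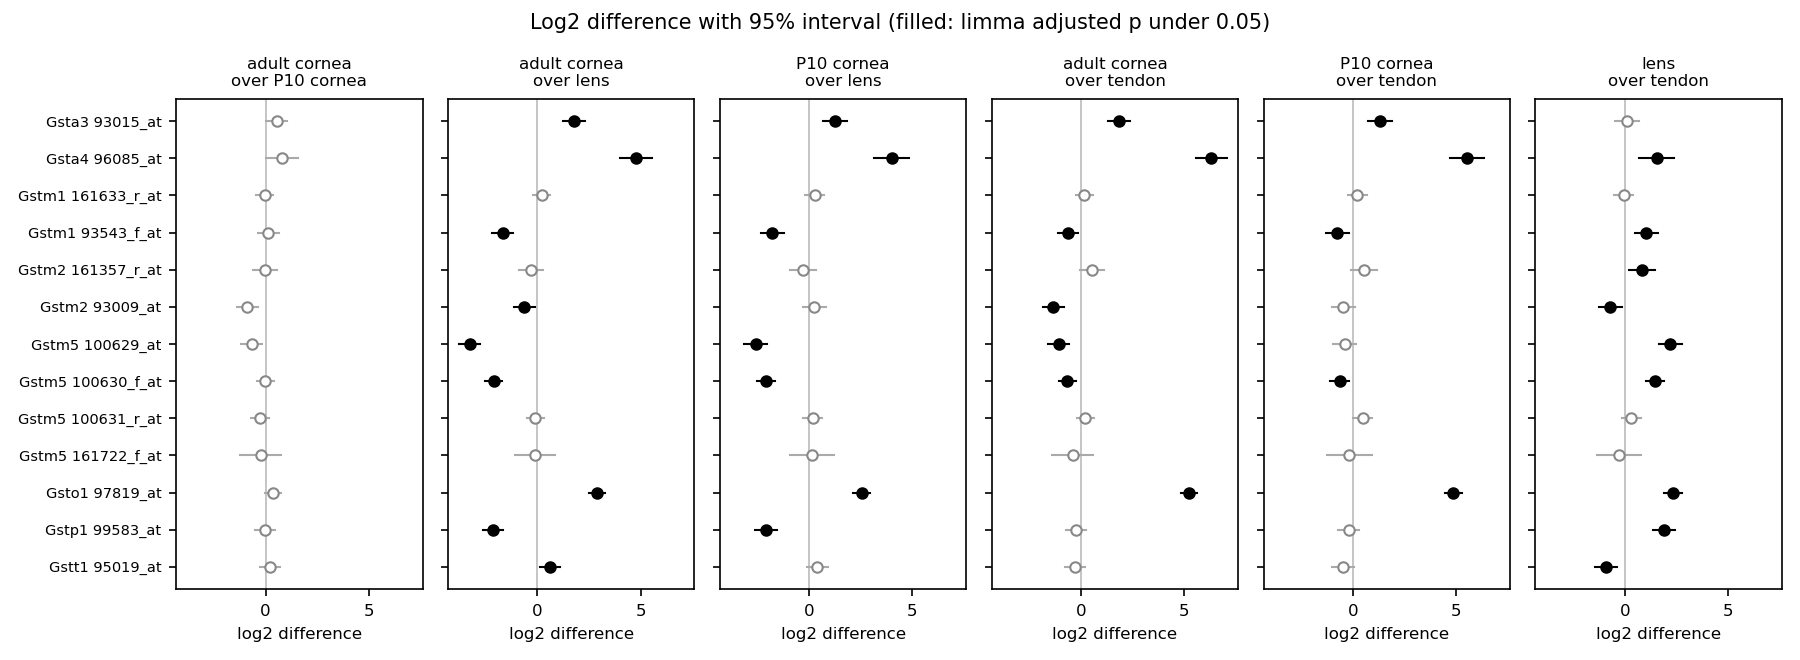
Log2 difference of index + 16 for each of the 13 tested transferase probe sets in the 6 comparisons, with 95% intervals from the limma fit, a vertical line at 0 and filled points for an adjusted p under 0.05. The intervals of Gsta4 and Gsto1 lie furthest above 0 for cornea over tendon, and that of Gstm5 100629_at lies furthest below 0 for adult cornea over lens.

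Between adult and P10 cornea, 0 of the 13 probe sets were called higher and 0 lower by limma, where 0.699% and 3.88% of all tested probe sets were. By the test of the series' methods at its own criteria 0 of the 13 were called, where 141 of all 8154 tested probe sets were. The median log2 difference of the 13 was -0.02, against -0.13 over all tested probe sets. The split of all calls was 57 higher and 316 lower as deposited and 76 higher and 184 lower after centring each array on its median. Gsta4 had the largest difference upward, with 3725 ± 151 (SD, n = 3) in adult cornea and 2152 ± 33.8 (SD, n = 2) in P10 cornea, or 1.72-fold (log2 0.79 ± 0.34 SE, 95% interval 0.02 to 1.55, limma adjusted p = 0.299). The 3 adult arrays lay above both P10 arrays. The adjusted p of this difference was 0.0291 in the fit of only these groups, 0.0207 without lens replicate 1 and 0.0192 without lens replicate 2, all past the threshold. Gsto1 had 5722 ± 394 (SD, n = 3) in adult cornea and 4463 ± 693 (SD, n = 2) in P10 cornea (log2 0.36 ± 0.17 SE, 95% interval -0.02 to 0.75, limma adjusted p = 0.353), again with no overlap. Gstm2 93009_at had the largest difference downward, with 86.0 ± 15.8 in adult cornea and 171 ± 13.7 in P10 cornea, or 1.85-fold (log2 -0.88 ± 0.23 SE, 95% interval -1.39 to -0.38, limma adjusted p = 0.0584). It came past the threshold without adult cornea replicate 3 (0.0454), lens replicate 1 (0.0338) or lens replicate 2 (0.0336). Gstm5 100629_at followed, with 46.4 ± 6.22 in adult cornea and 83.9 ± 6.28 in P10 cornea (log2 -0.68 ± 0.23 SE, limma adjusted p = 0.149). The epithelial list summed to overlapping values at the 2 ages, while the list of corneal stroma summed to 14116 to 15018 in adult cornea and 26939 to 27454 in P10 cornea, with Thy1 at or below 0 on an adult array. The part of that change in these values was not tested.

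The other glutathione transferases on the array were read for context. The list held 21 genes, of which 11 were on the array and 9 tested. Relative to lens, adult cornea was higher in 3 (Gsta2, Mgst3 and Gstk1) and lower in 2 (Gstz1 and Mgst1). Relative to tendon it was higher in 1 (Gsta2) and lower in 2 (Mgst1 and Gstm3). Relative to P10 cornea it was higher in 1 (Mgst3) and lower in 0. P10 cornea was higher than lens in 3 (Gsta2, Mgst3 and Ptges) and lower in 1 (Gstz1), and relative to tendon it was higher in Gsta2 and lower in Mgst1. Ptges reached the array median only on both P10 arrays, where it was highest, and on adult cornea replicate 3. Its difference from lens therefore follows from the filter in part and is given as description. Lens was higher than tendon in Gstz1 and lower in Gsta2, Mgst1 and Mgst3. Over all tested probe sets, adult cornea was higher and lower than lens in 27.2% and 24.0%, than tendon in 16.1% and 18.9%, and than P10 cornea in 0.699% and 3.88%. P10 cornea was higher and lower than lens in 31.6% and 19.4% and than tendon in 15.7% and 11.0%. Lens was higher and lower than tendon in 22.6% and 26.4%. The list's median log2 difference was -0.04 for adult over P10 cornea, 0.29 and -0.25 for adult cornea over lens and tendon, 0.17 and -0.33 for P10 cornea over lens and tendon, and -0.51 for lens over tendon. Over all tested probe sets it was -0.13, 0.08, 0.01, 0.25, 0.13 and -0.07 in that order.

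Gsta2, an alpha-class neighbour of Gsta4, was also highest in cornea. It averaged 271 ± 39.2 (SD, n = 3) in adult cornea and 184 ± 0.776 (SD, n = 2) in P10 cornea, against 10.8 ± 2.05 in lens and 66.4 ± 12.9 in tendon (SD, n = 2 each). Adult cornea was 10.7-fold above lens and 3.48-fold above tendon (limma adjusted p = 6.92e-07 and 5.23e-05), and lens was 3.07-fold below tendon (limma adjusted p = 0.000138). Gsta2 was thus lower in lens than in tendon, where Gsta4 was higher in lens. Mgst3, a membrane-bound transferase and peroxidase, read 443, 1155 and 778 in adult cornea and 281 and 167 in P10 cornea, against 48.7 and 38.9 in lens and 480 and 543 in tendon. It was 3.22-fold higher in adult than in P10 cornea (log2 1.69 ± 0.36 SE, limma adjusted p = 0.0270), but the call was lost under 6 alternatives. These were the fit of only these groups, the replicate block and leaving out either P10 array or either tendon array, with adjusted p of up to 0.277. Mgst3 was 12.6-fold higher in adult cornea than in lens (limma adjusted p = 1.94e-05). Mgst1, the microsomal transferase 1, averaged 46.4 ± 21.2 in adult cornea and 103 ± 0.536 in P10 cornea, against 355 ± 53.5 in tendon, 6.14-fold lower in adult cornea than in tendon (limma adjusted p = 0.000135). Gstz1, which isomerises maleylacetoacetate in tyrosine breakdown, averaged 150 ± 18.6 in adult cornea, against 390 ± 4.80 in lens, 2.46-fold lower in cornea (limma adjusted p = 0.000200). The calls of Mgst1 and Gstk1 in adult cornea against lens were each lost under 3 alternatives. These were the fit of only these groups and leaving out adult cornea replicate 1 for both, lens replicate 1 for Mgst1 and lens replicate 2 for Gstk1. Gstm3 in adult cornea against tendon lost its call under the replicate block and without either tendon array, and Ptges in P10 cornea against lens without P10 cornea replicate 2 or lens replicate 1. Mgst1 in P10 cornea against tendon lost its call without tendon replicate 1, and Gstz1 in lens against tendon without tendon replicate 2. Gstm6 and Ltc4s, read by the probe set with the highest mean, were called in 0 of the 6 comparisons by limma. A second Gstm6 probe set reached the array median only on the lens arrays (82.8 and 97.7), where it was highest. Its differences therefore follow from the filter in part and are given as description. It was lower in adult and in P10 cornea than in lens (log2 -1.43 and -1.40, limma adjusted p = 0.00164 and 0.00340). It was higher in lens than in tendon (log2 0.88, limma adjusted p = 0.0337). Gsta1 and Mgst2 were too low to be tested.

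**Figure D4:**
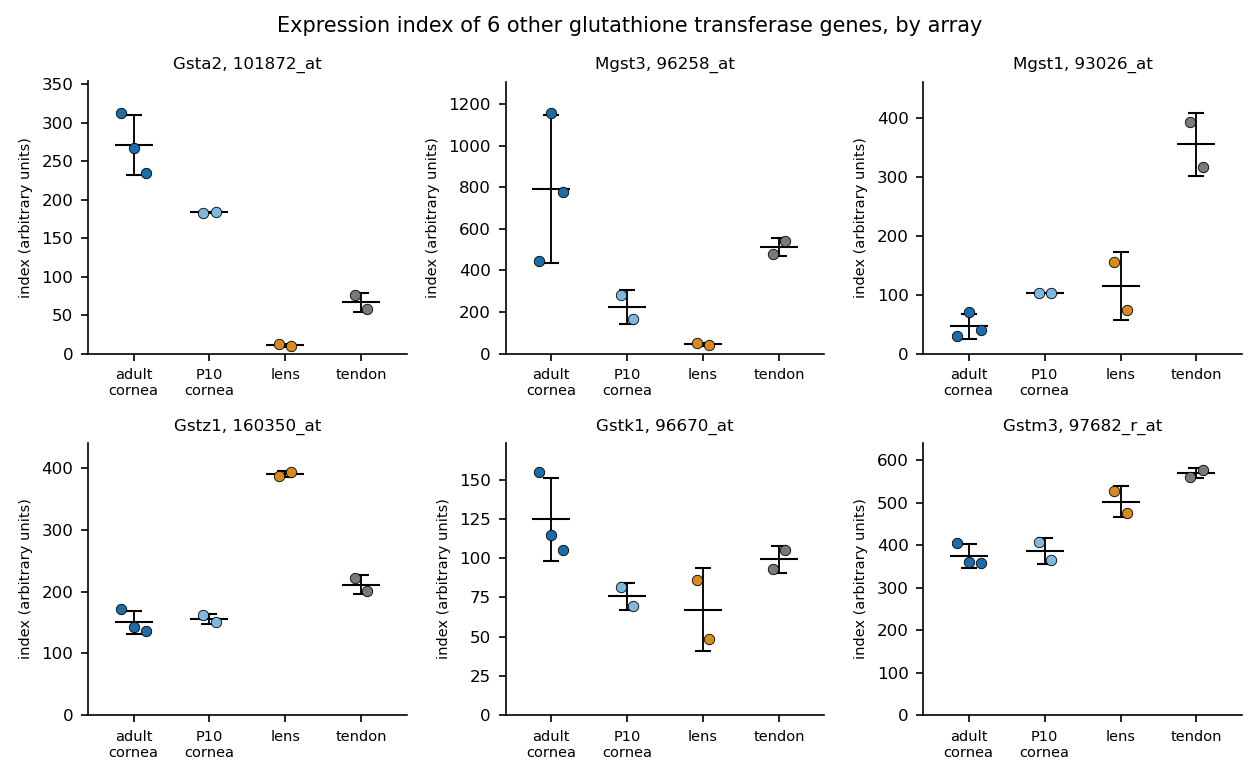
Expression index (arbitrary units, linear axis from 0) of Gsta2, Mgst3, Mgst1, Gstz1, Gstk1 and Gstm3 by array, with points for arrays, a long dash for the mean and bars for the SD, in adult cornea (n = 3), P10 cornea, lens and tendon (n = 2 each). Gsta2 and Mgst3 are lowest in lens, Mgst1 is highest in tendon and Gstz1 is highest in lens.

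The genes that make and recycle glutathione, the substrate of all these enzymes, were called in both directions. Of 21 genes in this list 13 were on the array and 10 tested. Adult cornea was higher than lens in 3 and lower in 6 (27.2% and 24.0% of all tested probe sets). P10 cornea was higher than lens in 2 and lower in 5 (31.6% and 19.4% of all). Lens was higher than tendon in 5 and lower in 1 (22.6% and 26.4% of all). Relative to tendon, adult and P10 cornea were each higher in 3 and lower in 2. The shares of all were 16.1% and 18.9% for adult and 15.7% and 11.0% for P10 cornea. Adult and P10 cornea were called different in 0 by limma (0.699% and 3.88% of all). Gss, glutathione synthetase, read 54.0, 107 and 66.8 in adult cornea and 96.5 and 82.1 in P10 cornea, against 823 and 422 in lens and 53.0 and 54.8 in tendon. Both lens arrays were above all others, and adult cornea was 6.79-fold below lens (log2 -2.76 ± 0.31 SE, limma adjusted p = 4.50e-05). A second Gss probe set disagreed, with 151, 188 and 167 in adult cornea and 151 and 128 in lens. Ggct, which splits gamma-glutamyl amino acids, averaged 16.5 ± 4.77 (SD, n = 3) in adult cornea, against 229 ± 22.4 (SD, n = 2) in lens, 7.59-fold lower in cornea (limma adjusted p = 5.91e-06). Ggct reached the array median only on the lens arrays, where it was highest. Its difference therefore follows from the filter in part and is given as description. Gclc, the catalytic subunit of the rate-limiting enzyme of glutathione synthesis, averaged 134 ± 48.5 in lens, against 20.3 ± 6.15 in tendon (SD, n = 2 each), 4.05-fold higher in lens (limma adjusted p = 0.000289). It was 2.22-fold higher in adult cornea than in tendon (limma adjusted p = 0.00768), a call lost without tendon replicate 1 (0.0975). Gclc reached the array median only on both lens arrays, where it was highest, and on adult cornea replicate 3. Its differences from tendon therefore follow from the filter in part and are given as description. Idh2, a mitochondrial source of NADPH, averaged 59.9 ± 22.1 in adult cornea, against 360 ± 127 in lens and 403 ± 82.5 in tendon. It was 4.95-fold and 5.61-fold lower in adult cornea (limma adjusted p = 0.000108 and 9.32e-05). The list's median log2 difference was -0.77 for adult cornea over lens, 0.39 for adult cornea over tendon and 0.44 for lens over tendon. Over all tested probe sets it was 0.08, 0.01 and -0.07 in that order.

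Other enzymes that use glutathione formed a list of 19 genes, 12 on the array and 10 tested. Adult cornea was higher than lens in 2 and lower in 5 (27.2% and 24.0% of all tested probe sets). It was higher than tendon in 1 and lower in 1 (16.1% and 18.9% of all). P10 cornea was higher than lens in 2 and lower in 4 (31.6% and 19.4% of all), and was higher than tendon in 2 and lower in 1 (15.7% and 11.0%). Lens was higher than tendon in 4 and lower in 2 (22.6% and 26.4% of all). Adult and P10 cornea were called different in 0 by limma (0.699% and 3.88% of all). Ethe1, a mitochondrial dioxygenase of glutathione persulphide, averaged 115 ± 25.3 in adult cornea, against 420 ± 40.1 in lens, 3.36-fold lower in cornea (limma adjusted p = 7.74e-05). Glrx, glutaredoxin, was 2.91-fold higher in adult cornea than in lens (123 ± 7.35 in adult cornea and 32.1 ± 6.83 in lens, limma adjusted p = 5.24e-05). Gpx3, the secreted glutathione peroxidase, averaged 85.1 ± 28.8 in adult cornea, against 818 ± 135 in tendon (log2 -3.07 ± 0.35 SE, limma adjusted p = 8.17e-05).

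NRF2 itself and its regulators made a list of 13 genes, 11 on the array and 6 tested. Nfe2l2, which encodes NRF2, read 198, 228 and 162 in adult cornea and 232 and 204 in P10 cornea, against 65.4 and 46.7 in lens and 153 and 162 in tendon. Lens was lowest and did not overlap any other group. Nfe2l2 was 2.95-fold higher in adult cornea than in lens (log2 1.56 ± 0.21 SE, limma adjusted p = 0.000147) and 2.43-fold lower in lens than in tendon (limma adjusted p = 0.000963). Over the list, adult cornea was higher than lens in 1 gene and lower in 1 (Mafg), where 27.2% and 24.0% of all tested probe sets were. It was higher than tendon in 0 and lower in 3 (Nfe2l1, Mafg and Sqstm1), where 16.1% and 18.9% were. P10 cornea was higher than lens in 2 (Nfe2l2 and Bach1) and lower in 0 (31.6% and 19.4% of all). It was lower than tendon in 2 (Nfe2l1 and Sqstm1) and higher in 0 (11.0% and 15.7% of all). Lens was lower than tendon in 3 (Nfe2l1, Nfe2l2 and Sqstm1) and higher in 0 (26.4% and 22.6% of all). Between adult and P10 cornea 0 were called by limma (0.699% of all higher and 3.88% lower in adult cornea). These counts rest on the probe set of each gene with the highest mean, and the second tested probe sets of Nfe2l1 and Mafg disagreed with it. That of Nfe2l1 averaged 146 in adult cornea, against 145 in tendon, and read 458 and 340 in lens, against 146 and 144 in tendon. That of Mafg read 129, -17.5 and 168 in adult cornea and was below 0 on both lens arrays. The Mafg probe set that was counted reached the array median only on both lens arrays, where it was highest, and on tendon replicate 1. Its differences therefore follow from the filter in part and are given as description. The Mafg call against tendon and the Bach1 call were lost under 11 and 10 alternatives. Those of Nfe2l1 and Sqstm1 in cornea against tendon were lost in at least 1 refit that left out a tendon array. The remaining NRF2 target and phase II genes, 26 in the list with 19 on the array and 15 tested, were called in both directions: 7 higher and 4 lower in adult cornea against lens, 6 and 2 in adult cornea against tendon, 7 and 5 in P10 cornea against lens, 5 and 1 in P10 cornea against tendon, and 7 and 6 in lens against tendon. Over all tested probe sets the shares higher and lower were 27.2% and 24.0%, 16.1% and 18.9%, 31.6% and 19.4%, 15.7% and 11.0%, and 22.6% and 26.4% in that order. Adult and P10 cornea were called different in 0 of these genes by limma (0.699% and 3.88% of all). Hmox1, heme oxygenase 1, averaged 150 ± 35.8 in adult cornea, against 2073 ± 188 in lens, 12.8-fold lower in cornea (limma adjusted p = 1.02e-06). Tkt, transketolase, known as an abundant soluble protein of the cornea, averaged 4549 ± 124 in adult cornea, against 124 ± 12.9 in tendon, 32.6-fold higher in cornea (limma adjusted p = 1.63e-07). Aldh3a1, the corneal aldehyde dehydrogenase, averaged 6605 ± 867 in adult cornea and 590 ± 150 in lens and was below 0 on both tendon arrays, so no fold against tendon is given.

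**Figure D5:**
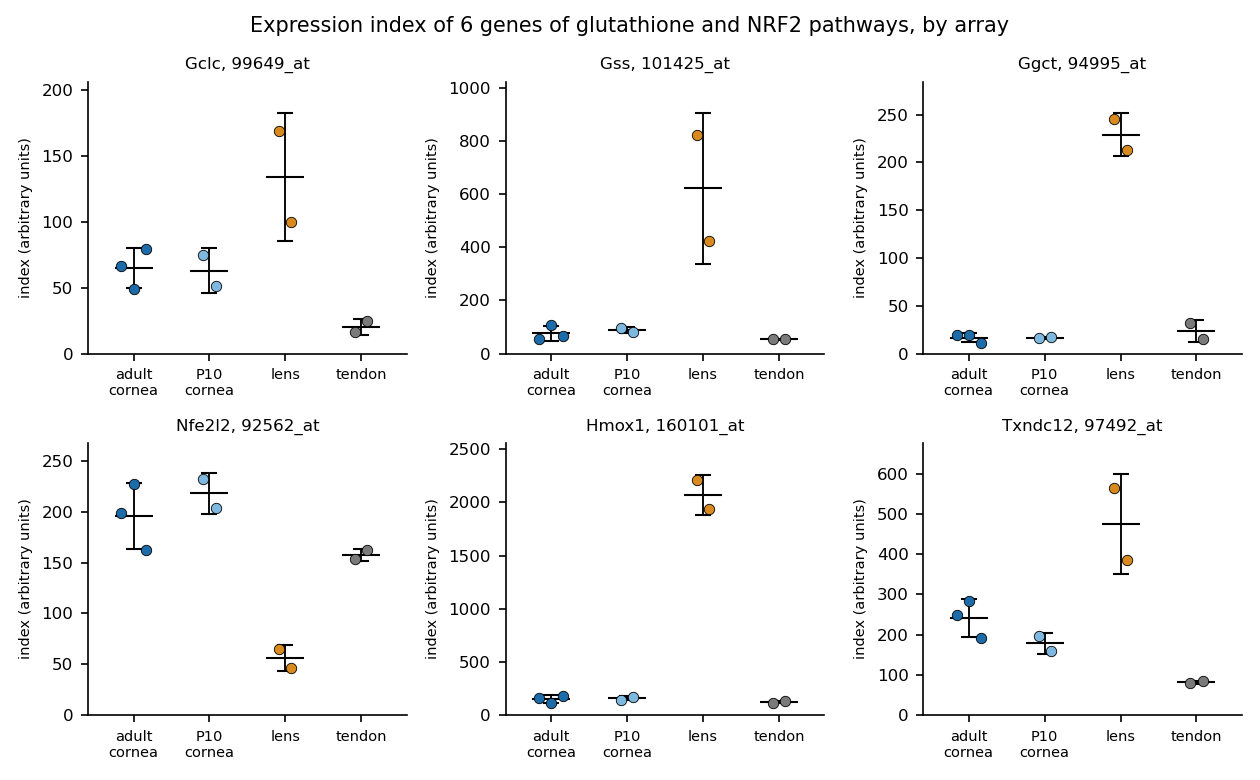
Expression index (arbitrary units, linear axis from 0) of Gclc, Gss, Ggct, Nfe2l2, Hmox1 and Txndc12 by array, with points for arrays, a long dash for the mean and bars for the SD, in adult cornea (n = 3), P10 cornea, lens and tendon (n = 2 each). Lens is highest for Gclc, Gss, Ggct, Hmox1 and Txndc12 and lowest for Nfe2l2.

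The patterns most like those of the members were found by correlating log2(index + 16) over the 9 arrays with 7220 other tested probe sets of 1 gene each, a description that rests mainly on the 4 tissue means. The nearest to Gsta4 were Cyp4a12b (r = 0.996) and a probe set of Aldh3a1 (r = 0.994), and the nearest to Gsto1 were Tkt (r = 0.995) and Krt6a (r = 0.992), a keratin of the epithelial marker list. Those nearest to Gsta3 were Csk (r = 0.994) and Arg1 (r = 0.991). For the genes high in lens they were Inpp5a (r = 0.992) and Pfdn2 (r = 0.990) beside Gstp1, Cpt2 (r = 0.992) and Ndrg1 (r = 0.988) beside Gstm5 100630_f_at, and Amz2 (r = 0.991) and Pkdcc (r = 0.986) beside Gstm1 93543_f_at. Beside Gstm2 93009_at stood Oaz2 (r = 0.973) and Tm2d2 (r = 0.971), beside Gstt1 Coq10a (r = 0.959) and Jund (r = 0.955), and beside Gstt2 G6pc2 (r = 0.982) and Cyp7a1 (r = 0.978). Among the members, Gstp1 correlated with the Gstm5 family probe set at r = 0.968 and with the Gstm1 family probe set at r = 0.947, and Gsta3 with Gsta4 at r = 0.939.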

How the data were processed

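The samples were 9 arrays of mouse tissue, grouped by their titles. The deposited table gives 1 linear intensity per probe set and array, an expression index in arbitrary units. The authors' own steps, per the series' design text, were Microarray Suite 5.0 followed by dChip (invariant-set normalisation, model-based index), while the submitters' processing notes name MAS5 with no version. Which program made the values, and the genome build, are not given in the sources used here. Values below 0 occur on every array.

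Array trimmed means lay within a ratio of 1.17 (limit 1.25), so no rescaling was applied. Negative values were raised to 0 before 16 was added and log2 taken. Probe sets at or above their array's median on at least 2 arrays were tested (8154 of 12488, 66 controls left out) with limma 3.58.1 in R 4.3.3: 1 group-means model, moderated variances with a mean trend (5 residual and 4.93 prior degrees of freedom), two-sided p-values and Benjamini-Hochberg adjustment per comparison. Precision is limited by the number of arrays, and p-values measure the spread between RNA preparations. On simulated data with added changes, the model recovered 32% to 50% of 2-fold and 79% to 91% of 4-fold changes, by comparison. False calls made up 1.45% to 5.6% of its calls. For adult over P10 cornea it recovered 50% of 2-fold changes, so differences of that size or smaller can be missed.

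The members and gene lists were chosen with earlier results of these data known. Named were all member probe sets, all other transferases on the array, per list and comparison up to 3 called genes with the largest differences (of which the text gives some), and the 2 nearest patterns per member. Where a listed gene had several probe sets, the brightest on average stood for it. Genes called in the lists of other transferases and NRF2 regulators are named in full. Promoter windows came from a RefSeq table on GRCm38.p6, matched by symbol for 7 of the 9 genes. Gsta4 and Gstt2 were not matched. Alternatives were pseudocounts of 1 and 64, 2 filters on low values, 3 normalizations, fits of only the groups compared, the series' own test, the replicate number as a block, and refits without each array in turn.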

Additional observations from a re-analysis of the deposited data

How the results depend on the processing

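Of the 37 called differences of transferase probe sets, 25 (of 7 genes) kept direction and call in every limma refit in which they could be tested, 12 lost the call in some, and none changed sign. Gsta3 and Gstt1 could not be tested under the stricter filter, nor Gsta3 without adult cornea replicate 1 or 2. The 25 include differences of Gsta3, which follow from the filter in part and are description only. Leaving out 1 array ended 47 of 325 such calls, and the other alternatives 13 of 327. A lone remaining array was assumed to vary like the other groups. Of 41 differences not called, 20 of 365 refits without 1 array and 18 of 363 others changed sign, and 6 and 5 gained a call. Among those reported, Gsta3 in lens over tendon (log2 0.08) ran from -0.044 without tendon replicate 2 to 0.204 without tendon replicate 1, and was -0.017 without lens replicate 2. Counts of called transferase probe sets, with 1 array left out, ran from 0 to 2 for adult over P10 cornea (0 in the full fit), 6 to 8 for adult cornea over lens (9), 4 to 7 for adult cornea over tendon (7), 6 to 8 for P10 cornea over lens (7), 2 to 5 for P10 cornea over tendon (5) and 6 to 9 for lens over tendon (9). In the fit of only the groups compared, 1 was called for adult over P10 cornea and 8 for P10 cornea over tendon. The methods' t-test called 0, 2, 3, 1, 1 and 0 at its own criteria and 0, 1, 1, 0, 0 and 0 after Benjamini-Hochberg, in the same order. Over all probe sets it called 141, 1253, 1018, 1036, 630 and 1217, and 0, 86, 88, 3, 0 and 0 after adjustment, where limma called 373, 4175, 2856, 4156, 2174 and 3994. With 1 array left out limma called 79 to 425, 2687 to 4437, 1379 to 3204, 2622 to 4503, 782 to 2601 and 2527 to 4382. In fits of only the groups compared it called 194 for adult over P10 cornea and 3832 for P10 cornea over tendon. The causes of these shifts were not tested. With the replicate number as a block, 0, 8, 6, 7, 5 and 9 transferase probe sets were called. Over all 8154 tested probe sets, that fit called 381, 4291 and 3071 for adult cornea over P10 cornea, lens and tendon. For P10 cornea over lens it called 4380. The labels' numbers name separate preparations and give no pairing of samples. Deviations of same-numbered arrays correlated at r = -0.363 to 0.201. These correlations cannot decide on a pairing, because the deviations in a group of 2 arrays mirror each other. Low signal limits Gstt2, Gsta3 and Gstt1, whose values lay near or below the array medians.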

Other observations

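Genes that export glutathione conjugates or turn them into mercapturates were also read, as a list of 17 genes, 11 on the array and 5 tested. Adult cornea was higher than lens in 3 and lower in 1 (27.2% and 24.0% of all tested probe sets). It was higher than tendon in 0 and lower in 3 (16.1% and 18.9% of all). P10 cornea was higher than lens in 2 and lower in 1 (31.6% and 19.4% of all), and higher than tendon in 0 and lower in 1 (15.7% and 11.0%). Lens was higher than tendon in 1 and lower in 2 (22.6% and 26.4% of all). Between the ages, 0.699% of all were higher and 3.88% lower in adult cornea. Anpep, an aminopeptidase that trims peptides at the cell surface, was the 1 gene of the list called between the ages, at 82.9 ± 9.14 (SD, n = 3) in adult cornea and 212 ± 7.33 (SD, n = 2) in P10 cornea. It was 2.32-fold lower in adult cornea (limma adjusted p = 0.00431), a call lost without either P10 array (adjusted p of up to 0.0742). Dpep3, a membrane dipeptidase, averaged 111 ± 30.5 in adult cornea, against 623 ± 42.2 in lens, 5.10-fold lower in cornea (limma adjusted p = 1.30e-05). A second Dpep3 probe set ran the other way, with 197, 210 and 251 in adult cornea, against 62.2 and 40.3 in lens. Abcc3, an exporter of organic anions and conjugates, averaged 393 ± 63.6 in adult cornea, against 1152 ± 254 in tendon, 2.85-fold lower in cornea (limma adjusted p = 0.000486). Its probe set was below 0 on both lens arrays, so no fold against lens is given.

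Mgst1 and Gpx3 were at their highest in tendon, where the lists of adipocytes (7 of 9 genes on the array, summed index 595 to 1936 over the cornea and lens arrays, against 5563 to 5948 in tendon) and of skeletal muscle were at their highest too. So were the lists of tendon (5 of 11 genes on the array, 19348 to 21486), of macrophages and leukocytes (10 of 11, 3771 to 3983) and of vascular endothelium (6 of 7, 504 to 549). Over the cornea and lens arrays these summed to 273 to 7398, 701 to 1719 and 198 to 391. The part of any of these cell types in the Mgst1 and Gpx3 values was not tested.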
